A study of Mus musculus with 22 samples.

Results

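Olfml3 (olfactomedin-like 3), Fn1 (fibronectin) and 6 matricellular genes, Sparc, Postn (periostin), Tnc (tenascin C), Thbs1 and Thbs2 (thrombospondins) and Spp1 (osteopontin), were followed in FE1 cells exposed to Mitsui7 multiwalled carbon nanotubes. The 8 genes were chosen by symbol from the 20018 named genes of the array, and 11 probes stood for them, 2 each for Olfml3, Sparc and Tnc and 1 for each of the others. They were selected on a list drawn up with the differences between exposed and control cells already known, so those differences are given as a description without a p-value. The ratios of all dose groups were known as well, so the p-values given for differences between doses, and for related genes and receptors, come from the fit over all probes and are not independent of that choice. FE1 is an epithelial line from the lung of the Muta Mouse. Cells were grown in medium with serum and epidermal growth factor and incubated for 24 h with 0, 12.5, 25 or 100 µg/ml of Mitsui7, which gave 5 arrays of controls, 6 of the low, 5 of the medium and 6 of the high dose. On every array the sample RNA carried Cy5 and a universal mouse reference RNA carried Cy3, and a value below is the log2 ratio of sample to reference after loess normalization. All groups are 1 cell line. The study describes 3 separate exposure experiments, fewer than the arrays of any group, and the labels do not say which array came from which, so some arrays of a group may share an experiment. The p-values measure the spread between arrays, part of which may be technical, and are too small where arrays share an experiment. Where a probe's ratio is lower, fewer cells that make the transcript and less transcript per cell cannot be told apart.

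Fibronectin is the large adhesive glycoprotein from which cells assemble a fibrillar matrix, and integrins on the cell surface bind it and take part in that assembly. Matricellular proteins are secreted into the same matrix but serve mainly to modulate how cells attach, migrate and respond to growth factors, not to bear load. Their levels are typically high during development and wound repair and in fibrosis, the scarring that carbon nanotubes can provoke in the lung. Olfml3 is a secreted glycoprotein with an olfactomedin domain, a fold that other extracellular proteins such as myocilin also carry.

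The sequences just before the transcription start are printed for Olfml3, the member with the largest difference, and for Sparc, Postn and Spp1. Postn was also lower at the high dose, as was Sparc by its dimmer probe, while its brighter probe overlapped between the groups. Spp1 was higher at the low and medium doses. RefSeq's promoter table (build GRCm38.p6) held 6 of the 8 genes in 9 windows. Each line gives the 250 bases before the start, 5′ to 3′ on the gene's strand, with motif matches in capitals. Motifs were searched by their letters on both strands and are set against all 32851 windows of this length. The TATA box, read as TATAAA, was present in 12.4% of them. The second motif, the CCAAT box of promoters, was found in 33.8%. For the box rich in G and C the letters were GGGCGG, which 32.7% of windows held. The AP-1 motif was read as TGANTCA with any base at N and occurred in 6.75%.
Olfml3, chr3:103738002-103738251, minus strand: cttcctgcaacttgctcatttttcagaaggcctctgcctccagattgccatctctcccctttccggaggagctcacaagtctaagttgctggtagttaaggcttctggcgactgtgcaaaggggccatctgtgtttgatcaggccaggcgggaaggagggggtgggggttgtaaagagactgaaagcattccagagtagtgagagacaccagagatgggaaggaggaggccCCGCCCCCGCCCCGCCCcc
Sparc, chr11:55420081-55420330, minus strand: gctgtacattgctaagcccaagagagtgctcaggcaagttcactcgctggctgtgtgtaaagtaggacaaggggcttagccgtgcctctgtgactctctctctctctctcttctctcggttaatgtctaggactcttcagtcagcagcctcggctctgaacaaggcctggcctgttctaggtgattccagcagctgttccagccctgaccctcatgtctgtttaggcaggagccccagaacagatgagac
Postn, chr3:54360857-54361106, plus strand: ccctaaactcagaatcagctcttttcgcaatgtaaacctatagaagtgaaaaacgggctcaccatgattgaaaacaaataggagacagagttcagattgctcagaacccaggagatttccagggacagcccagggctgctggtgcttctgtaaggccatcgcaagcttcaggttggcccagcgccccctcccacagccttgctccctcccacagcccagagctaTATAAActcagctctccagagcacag
Spp1, chr5:104434861-104435110, plus strand: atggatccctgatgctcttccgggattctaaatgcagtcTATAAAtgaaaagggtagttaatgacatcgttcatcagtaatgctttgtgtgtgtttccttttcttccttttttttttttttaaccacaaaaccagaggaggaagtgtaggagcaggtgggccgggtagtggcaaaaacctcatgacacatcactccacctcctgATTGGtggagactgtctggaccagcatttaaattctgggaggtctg
The Olfml3 window held 3 GC boxes in reverse orientation, all within the 19 bases before the start, the pair nearest to the start sharing 1 base. The Postn window held a TATA box from 26 to 21 bases before the start, whereas the window at the other Postn start held none of the 4 motifs. The Spp1 window held a TATA box 211 to 206 bases and a reversed CCAAT box 46 to 42 bases before the start, and the other Spp1 window none of the 4. The Sparc window held none of the 4 motifs, and TGANTCA was in none of the 9 windows. Fn1 and Thbs1 are named only.

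Between 23688 and 39139 of the 55681 probes were detected per array, that is, with a Cy5 signal above the negative control spots. The arrays lay on 5 slides, of which slides 1 to 4 each held all 4 groups and slide 5 held 1 array each of the low and the high dose. By the distance over 12255 detected genes, 17 of the 22 arrays lay nearest to the mean of the other arrays of their own group. All 5 control arrays did so, but 2 of the 5 medium dose arrays did. Medium dose replicates 1 and 5 lay nearest to the high dose, medium dose replicate 2 nearest to the low dose, and low dose replicate 1 and high dose replicate 6 nearest to the medium dose. The members' differences were also computed without low dose replicate 1 and medium dose replicate 2, each of which lay nearest to the other's group. The label of a lung epithelial line was set against marker genes. Of 6 epithelial markers 4 were well above background on at least 4 of the 5 control arrays, Krt8, Krt18, Krt19 and Cldn7, whereas Epcam was so on 0 and Cdh1 on 1. Of the alveolar markers 4 of 11 cleared it so, of leukocyte markers 2 of 4 and of endothelial markers 2 of 5, and of these lists 2 genes were called at the high dose, Lamp3 higher and Hopx lower. Of the surfactant genes, Sftpa1 and Sftpb were well above background on 0 of 5 control arrays, Sftpc on 2 and Sftpd on 3. All 9 mesenchymal markers were above background, and 6 of the 9 were lower at the high dose and 0 higher. Their mean log2 ratio per array ran from -0.18 to 0.14 in controls, from -1.01 to -0.14 at the low dose, from -1.08 to -0.53 at the medium dose and from -1.05 to -0.56 at the high dose. The other 3 of the 9 were not called, with high dose differences of 0.14 (Vim), 0.21 (Zeb1) and -0.02 (Thy1). The part of these markers in the members' differences was not tested.

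Olfml3 was the member with the largest difference at every dose, and its ratio was lower in all exposed groups. The brightest probe read 0.71, 1.02, 1.03, 0.92 and 1.80 on the 5 control arrays. At the low dose it ran from -2.41 through a median of -0.11 to 1.08. It read -2.08, -1.25, -1.23, -0.75 and -1.21 at the medium dose and ran from -2.56 through -1.80 to -0.93 at the high dose. Every medium and high dose array lay below every control array, and 5 of the 6 low dose arrays did, the exception being replicate 6 at 1.08. The low dose group was the most scattered, with an SD of 1.19 against 0.41 in the controls, with replicate 1 at -2.41, below every other low dose array and within the range of the high dose. In the model with group and slide, the difference from control was -1.51 ± 0.33 (SE, n = 6 and 5) at the low dose, or 2.86-fold lower. It was -2.40 ± 0.34 at the medium dose, 5.28-fold lower, and -2.97 ± 0.33 at the high dose, 7.82-fold lower. Without low dose replicate 1 and medium dose replicate 2 the values were -1.15, -2.50 and -2.93. Within the single slides the difference ran from -2.13 to -0.72 at the low dose, from -3.01 to -1.67 at the medium dose and from -3.30 to -1.85 at the high dose, so that it was below 0 on all 4 slides at each dose.

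The second Olfml3 probe was dimmer, with Cy5 signals of 78 to 938 units, and its Cy5 signal cleared the background on 4 of 5 controls and on 5 of 6, 5 of 5 and 4 of 6 arrays at the rising doses. It read 1.40, 1.62, 1.30, 0.36 and 0.24 in controls and between -1.60 and -0.81 at the high dose. Its differences from control were -1.59 ± 0.33 (low), -1.78 ± 0.34 (medium) and -2.20 ± 0.33 (high). Both probes thus gave the same direction and the same order of the doses, and the differences of the second probe at the medium and high doses were the smaller.

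**Figure D1:**
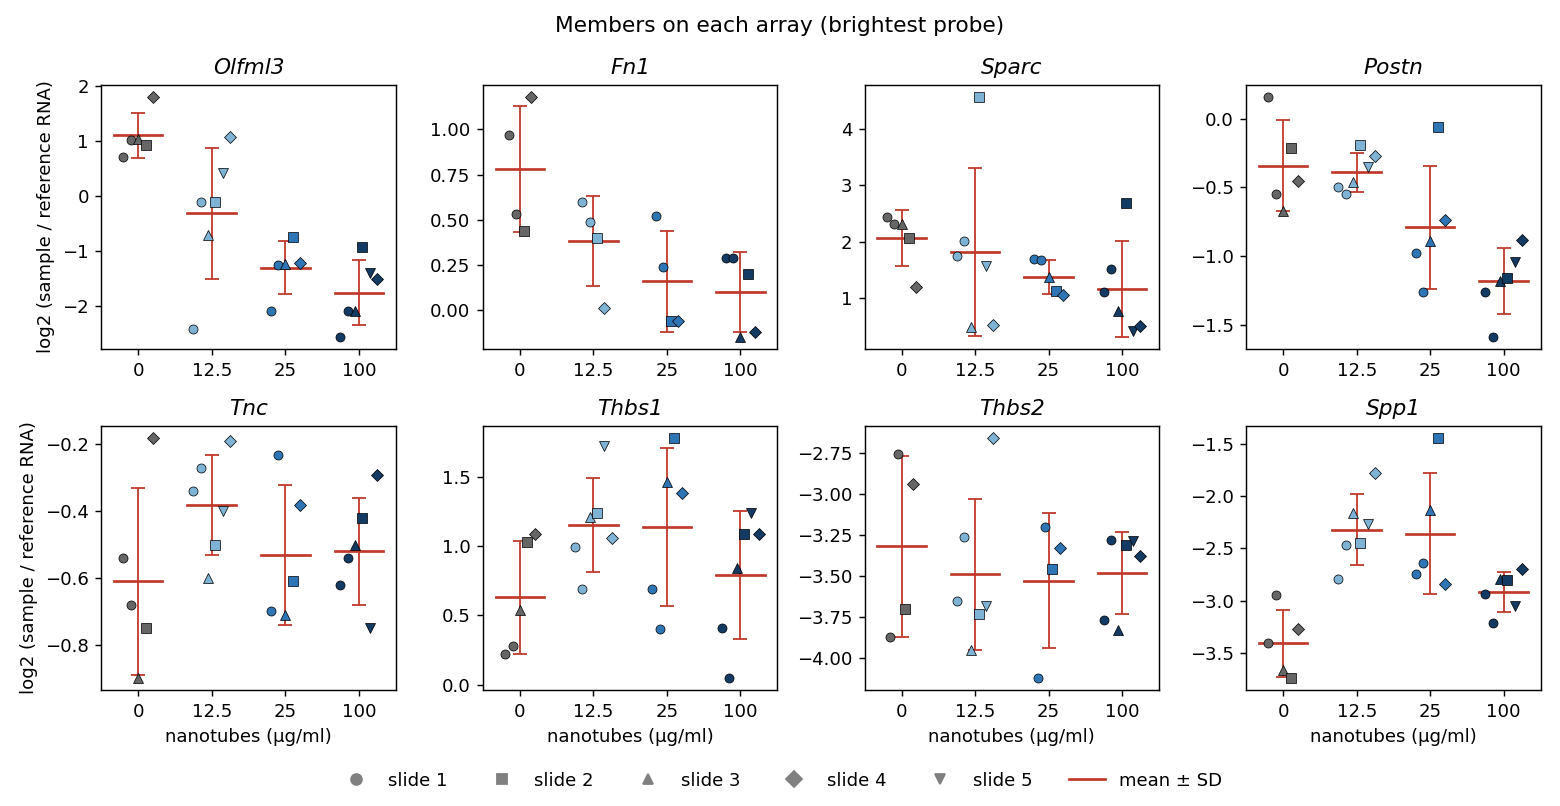
The log2 ratio of sample to reference RNA (vertical axis, a separate scale for each gene) against the nanotube concentration in µg/ml (horizontal axis) for the brightest probe of each of the 8 genes. Each point is 1 array, its shape the slide, and the red lines give mean ± SD. The Olfml3 points of the medium and high dose all lie below those of the control, and the Sparc point of low dose replicate 4 stands alone at 4.56.

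Fn1, the adhesive glycoprotein of the provisional and permanent matrix, was among the brightest spots. Its Cy5 signals ran from 23724.5 to 188589 units on the arrays with a value. No member spot was marked as saturated in Cy5, and saturation in Cy3 was not examined. Spots marked as outliers by the scanner software were left out, which took away 5 Fn1 values, on control replicate 3, low dose replicates 3 and 5, medium dose replicate 3 and high dose replicate 5. The remaining control arrays read 0.97, 0.53, 0.44 and 1.18. The low dose arrays read 0.60, 0.49, 0.40 and 0.01, and the medium dose arrays 0.52, 0.24, -0.06 and -0.06. The 5 high dose arrays lay between -0.15 and 0.29, all below the lowest control array. The difference from control was -0.40 ± 0.17 (SE, n = 4 and 4), -0.62 ± 0.17 (n = 4 and 4) and -0.61 ± 0.17 (n = 5 and 4), or 1.32-, 1.53- and 1.53-fold lower. Within the 3 slides that had values the difference ran from -1.16 to -0.03, from -1.23 to -0.37 and from -1.30 to -0.24, and the control of slide 4, replicate 5, was the highest at 1.18. Without it the medium and high dose differences were both -0.39. With the marked spots kept they were -0.57 and -0.79, and the high dose difference was -0.48 with the replicate number as the block. None of these values was called. The medium dose call also ended without control replicate 1 or 3, low dose replicate 2, medium dose replicate 2, 4 or 5 or high dose replicate 1 or 2, and the high dose call without control replicate 1 or high dose replicate 1, 2 or 6.

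Sparc, the collagen-binding glycoprotein also known as osteonectin, had 2 probes with unequal spread. The brightest read 2.43, 2.31, 2.31, 2.07 and 1.20 in controls and ran from 0.42 through 0.93 to 2.68 at the high dose. It read 1.69, 1.67, 1.38, 1.12 and 1.06 at the medium dose, and its groups overlapped. On low dose replicate 4 it stood at 4.56, where the Cy3 signal was 15608 units against 48998 to 131266 on all other arrays. Its differences from control were -0.15 ± 0.40, -0.68 ± 0.41 and -0.80 ± 0.40, and without low dose replicate 4 the first of these was -0.65. Without slide 2, which held that array, the high dose difference was -1.18 and was called. The second Sparc probe was dimmer by far, with Cy5 signals of 350 to 3799 units, but its replicates lay closer together. It read 0.16, -0.19, -0.09, 0.41 and -0.02 in controls and ran from -0.68 through -0.51 to -0.29 at the low dose. At the medium dose it read -0.40, -0.87, -0.89, -0.49 and -0.71, and at the high dose it ran from -1.35 through -0.94 to -0.81. No exposed array of this probe reached the lowest control array. The differences were -0.56 ± 0.11, -0.73 ± 0.11 and -1.04 ± 0.11, or 1.47-, 1.65- and 2.06-fold lower, and within the single slides they were below 0 throughout.

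Postn, which binds collagen, fibronectin and integrins and promotes collagen cross-linking, was dim but detected. It read 0.16, -0.55, -0.67, -0.21 and -0.45 in controls. The low dose arrays, from -0.55 through -0.40 to -0.19, lay within the control range. The medium dose arrays read -0.98, -1.26, -0.89, -0.06 and -0.74, of which replicate 4 at -0.06 alone stayed within the control range, and the high dose arrays ran from -1.59 through -1.17 to -0.88, all below the controls. The difference was -0.06 ± 0.16 at the low, -0.44 ± 0.16 at the medium and -0.86 ± 0.16 at the high dose, the last 1.81-fold lower. The probe was well above background on 4 of 5 control and 5 of 6 high dose arrays.

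Spp1, a phosphorylated ligand of integrins and of Cd44 that is secreted by epithelial cells and macrophages, was the member with the largest positive difference. It read -3.41, -2.95, -3.66, -3.74 and -3.27 in controls. At the low dose it ran from -2.79 through -2.36 to -1.78, and at the medium dose it read -2.74, -2.64, -2.13, -1.44 and -2.84. All arrays of both groups lay above all controls, and after the slide was allowed for 6 of 6 and 4 of 5 did. The high dose arrays, from -3.21 through -2.87 to -2.70, overlapped the controls and both other doses. Of these, 4 of 6 lay above every control, and 2 of 6 after the slide was allowed for. The differences from control were 1.09 ± 0.22, 1.05 ± 0.22 and 0.50 ± 0.22, or 2.14-, 2.06- and 1.41-fold higher, and within the 4 slides they were above 0 at every dose.

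The thrombospondins are trimeric or pentameric glycoproteins, of which Thbs1 and Thbs2 bind CD36 and CD47, and Thbs1 can release latent TGF-beta. Thbs1 read 0.22, 0.28, 0.54, 1.03 and 1.09 in controls, lowest on slide 1 and highest on slides 2 and 4. The low dose arrays ran from 0.69 through 1.13 to 1.72 and the medium dose arrays read 0.69, 0.40, 1.46, 1.78 and 1.38, both overlapping the controls, as did the high dose arrays, which ran from 0.05 through 0.96 to 1.24. After the slide was allowed for, 5 of 6 low dose and 4 of 5 medium dose values lay above every control value. The differences were 0.42 ± 0.13, 0.51 ± 0.13 and 0.05 ± 0.13 as the dose rose, the first 2 being 1.33- and 1.42-fold. Thbs2 lay far below the reference, between -4.12 and -2.66 on all arrays with a value, with differences of -0.07 ± 0.23, -0.21 ± 0.24 and -0.06 ± 0.23. Its groups overlapped at every dose, and 2 values, on control replicate 3 and medium dose replicate 3, were left out as outlier spots. The Thbs2 probe was dim, with Cy5 signals of 77 to 324 units in controls. It was well above background on 4 of 5 controls and on 5 of 6, 5 of 5 and 6 of 6 arrays at the rising doses. Its small differences are therefore not read as an absence of change.

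Tnc, a hexameric glycoprotein of wound margins and fibrotic tissue, was close to background with both probes. The brighter probe cleared the background on 1 of 5 controls and on 2 of 6, 2 of 5 and 2 of 6 arrays at the rising doses, and the dimmer on 1, 1, 1 and 0. Their differences, between 0.07 and 0.30, are given without a fold change for that reason.

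By the criteria of an adjusted p of at most 0.05, at least 1.5-fold and detection on at least 4 arrays of a group (limma, Benjamini-Hochberg over 55681 probes), the brightest probes of 2 of 8 genes were called at the low dose, Olfml3 lower and Spp1 higher. Over all genes tested 3.01% were called lower and 2.17% higher at that dose. At the medium dose 3 were called, Olfml3 and Fn1 lower and Spp1 higher, beside 4.65% lower and 4.24% higher among all genes. At the high dose Olfml3, Fn1 and Postn were called lower and 0 higher, beside 6.40% and 5.45%. Nothing is read from these shares, because the genes were selected with the same comparisons in view. The median difference of the 8 brightest probes was -0.06 (low), -0.33 (medium) and -0.34 (high), against 0.00, 0.00 and 0.01 over all genes detected. Olfml3 was called at the high dose under all 41 alternatives in processing or in the arrays used, at the medium dose under 40 and at the low dose under 37. These alternatives reuse the same arrays, and 22 of them only left out 1 array. They describe how the calls depend on such choices and are no independent support for them. Fn1 was called under 20 of the 41 at the medium and 28 of the 41 at the high dose. Spp1 was called under 39 at the low and 37 at the medium dose. It lost both calls with median centring, and again with slide 3 left out. The Sparc call depended on the probe, since the second probe was called at the medium and the high dose and the brightest at 0 doses. The split between directions over all genes moved with the scaling. Of the genes called, 41.9%, 47.7% and 46% were higher at the low, medium and high dose with loess, and 16.5%, 37% and 31% with median centring of each array.

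**Figure D2:**
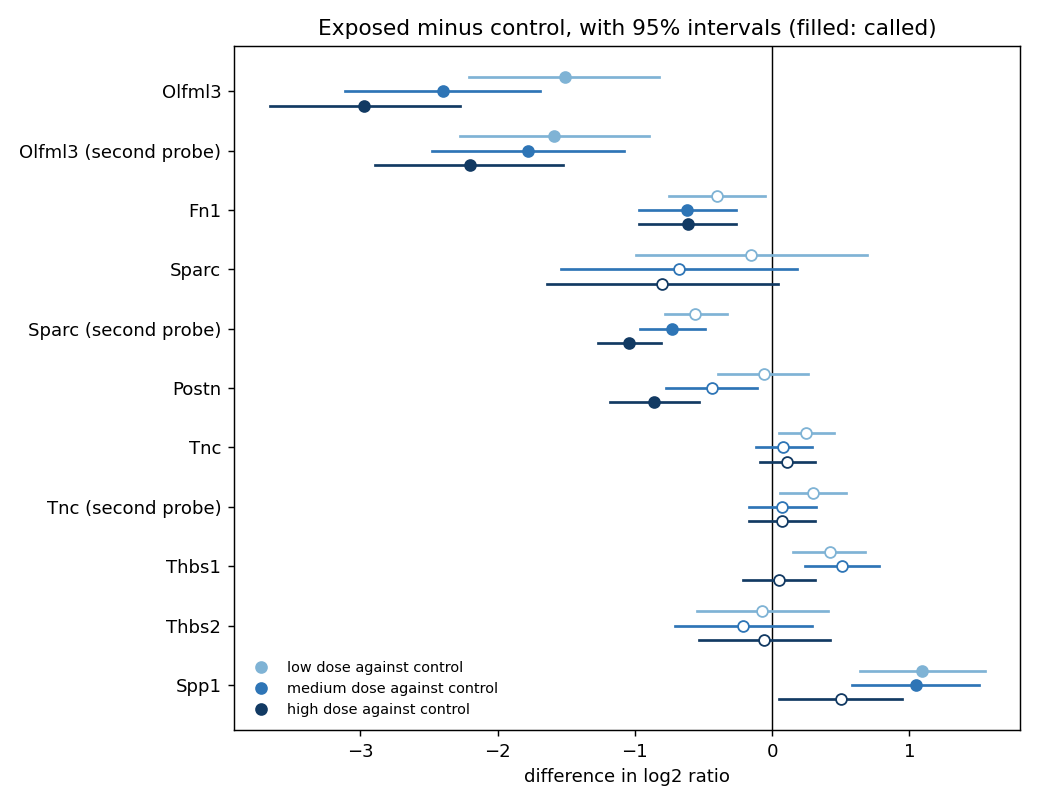
Difference in log2 ratio from control (horizontal axis) for the 11 probes of the 8 genes (vertical axis) at the low, medium and high dose. Points are limma estimates from the model with group and slide, lines are 95% intervals, and filled points were called. The Olfml3 points run from -1.51 through -2.40 to -2.97, and the Spp1 points lie to the right of 0, at 1.09, 1.05 and 0.50.

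The doses were then compared with each other. High dose against low dose, 1 of the 8 genes was called by its brightest probe, beside 0.435% of all genes tested. This was Postn, which was lower at the high dose by -0.80 ± 0.15 (95% interval -1.10 to -0.50, 1.74-fold, limma adjusted p = 0.0182, n = 6 and 6), and all 6 high dose arrays lay below all 6 low dose arrays. Leaving out any 1 of 6 arrays, low dose replicates 3, 5 and 6 and high dose replicates 2, 4 and 5, ended the call, with limma adjusted p from 0.0538 to 0.0679 and differences from -0.82 to -0.73. The call was also absent with slide 1, 3, 4 or 5 left out, with median centring and without the slide term, and held under 26 of the 41 alternatives. The brightest Olfml3 probe was lower by -1.45 ± 0.31 (interval -2.10 to -0.80, limma adjusted p = 0.0534), so that it missed the threshold. It passed with slide 1 left out (-1.65, limma adjusted p = 0.0498), without low dose replicate 1 (-1.80, limma adjusted p = 0.000719), without that array and medium dose replicate 2 together (-1.79, limma adjusted p = 0.000926), and when arrays were blocked by replicate number instead of slide (-1.45, limma adjusted p = 0.00749). The second Olfml3 probe differed by -0.61 ± 0.31 (interval -1.25 to 0.03, limma adjusted p = 0.635).

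The second Sparc probe was lower at the high than at the low dose by -0.48 ± 0.10 (interval -0.70 to -0.27, limma adjusted p = 0.0457), a 1.40-fold difference that is below the 1.5-fold criterion. All 6 high dose arrays lay below all 6 low dose arrays. Spp1 differed by -0.60 ± 0.20 (interval -1.02 to -0.17, limma adjusted p = 0.341) and Thbs1 by -0.36 ± 0.12 (interval -0.61 to -0.12, limma adjusted p = 0.302), and neither passed. For Fn1 the interval of the difference ran from -0.56 to 0.14 and for Thbs2 from -0.39 to 0.42.

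Between the medium and the low dose and between the high and the medium dose 0 of the 8 genes were called by limma, as were 0% of all genes tested in either comparison. At an unadjusted p below 0.05 there were 2 members in the first comparison and 3 in the second. The share of all genes at that threshold was not computed, so nothing is read from these counts. Olfml3 was lower at the medium than at the low dose by -0.89 ± 0.33 (interval -1.58 to -0.19, limma adjusted p = 0.868), and at the high than at the medium dose by -0.57 ± 0.33 (interval -1.26 to 0.13, limma adjusted p = 1). Its group means thus ran downwards from control to the high dose, but neighbouring doses did not differ by the test. Spp1 at the medium dose differed from the low dose by -0.05 (interval -0.50 to 0.40, limma adjusted p = 0.984) and at the high from the medium dose by -0.55 (interval -1.0 to -0.09, limma adjusted p = 1).

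**Figure D3:**
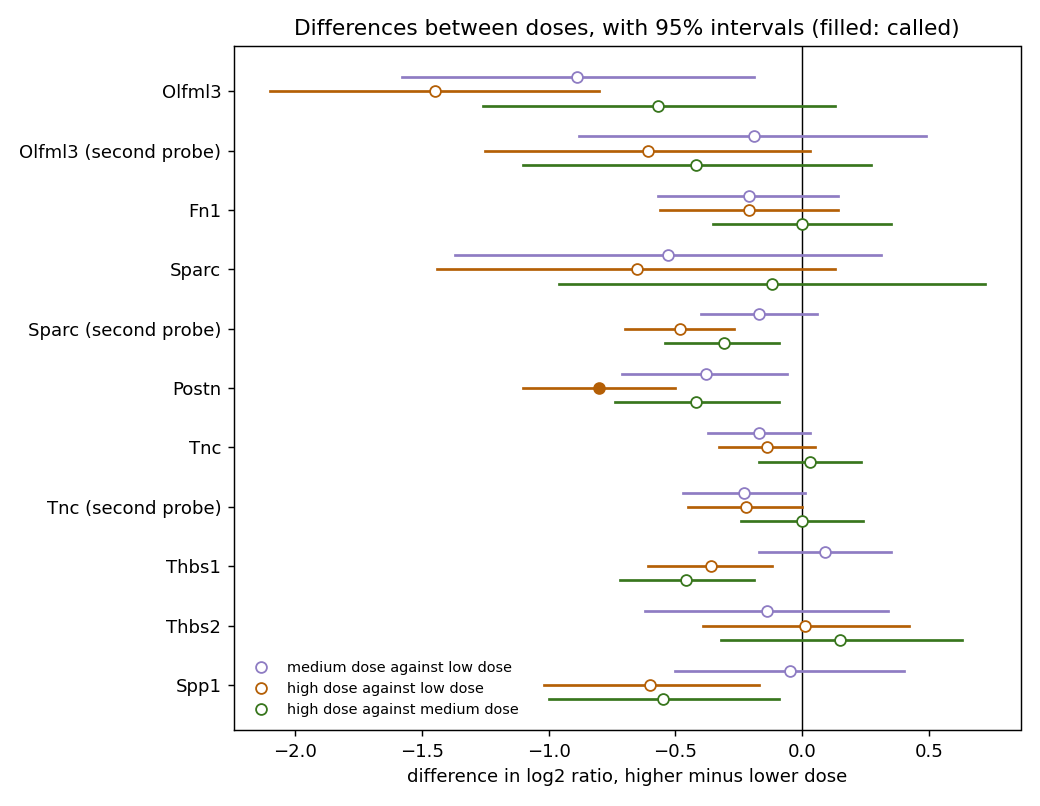
Difference in log2 ratio between doses, the higher minus the lower dose (horizontal axis), for the 11 probes of the 8 genes (vertical axis). Points are limma estimates, lines 95% intervals and filled points called differences. Postn, at -0.80 for high against low dose, is the single filled point, and the intervals of all 3 Fn1 comparisons span 0.

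The genes whose pattern over the 22 arrays lay nearest to that of Olfml3 were found by the root mean square difference of slide-adjusted, control-centred log2 ratios among 11270 named genes detected in controls. Among the nearest were Il33 (0.52), Trf (0.53), Angptl7 (0.54) and Gstt1 (0.61). Il33 encodes an alarmin cytokine of epithelial cells, Trf transferrin, Angptl7 an angiopoietin-like secreted protein and Gstt1 a glutathione transferase. Their differences from control at the high dose were -3.15, -2.73, -2.43 and -2.31, against -2.97 for Olfml3. Pearson's r with Olfml3 over the 22 arrays was 0.90 to 0.91 for these 4, a description of arrays that share slides and groups. The other members lay farther off. The distance takes in both the size and the direction of a difference, and theirs were smaller than those of Olfml3 or, for Spp1 and Thbs1, positive. Sparc was placed by its brightest probe, which stood apart on low dose replicate 4, and its second probe was not placed. Postn was at 1.73 (r = 0.65), Sparc at 1.74 (r = 0.45), Thbs2 at 2.08 (r = 0.36), Thbs1 at 2.40 (r = -0.30) and Spp1 at 2.83 (r = -0.24), while Fn1 had values on too few arrays and Tnc was detected on too few controls to be placed.

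**Figure D4:**
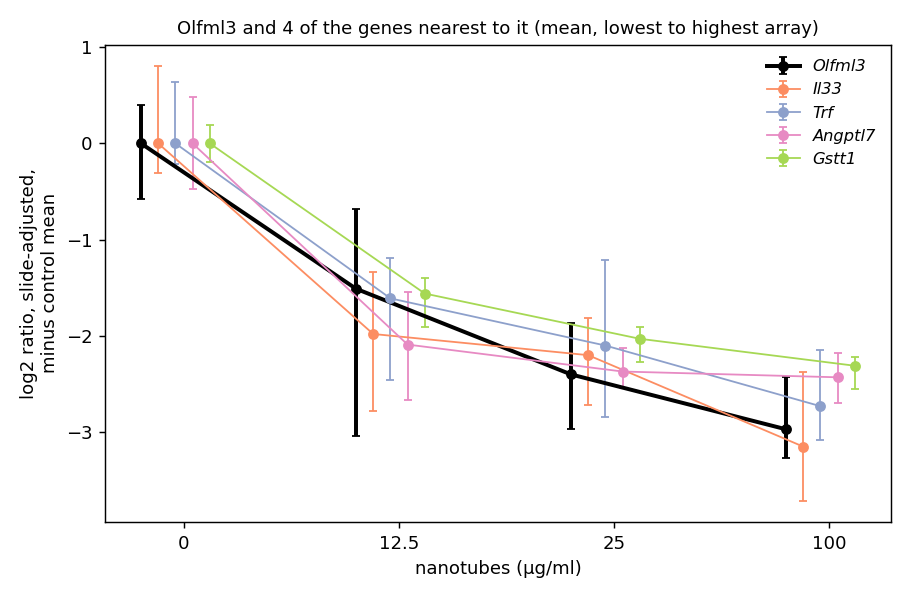
Slide-adjusted log2 ratio minus the control mean (vertical axis) against the nanotube concentration in µg/ml (horizontal axis) for Olfml3 and 4 of the genes nearest to it. Points are group means and bars run from the lowest to the highest array. All 5 genes lie between -2.31 and -3.15 at the high dose, and the Olfml3 bar at the low dose is the longest, reaching down to -3.04.

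Relatives of the members were taken from a list of 27 genes, the olfactomedin, SPARC, tenascin, thrombospondin and SIBLING families and Tgfbi, a fasciclin-domain relative of Postn, of which 26 were on the array and 9, 9 and 11 were detected at the low, medium and high dose. Of these 0, 2 and 3 were called lower and 0 higher at the respective dose, beside 3.01%, 4.65% and 6.40% called lower among all genes, with a median difference of -0.19, -0.04 and -0.11. At the low dose 3 had an unadjusted p below 0.05. The shares above are for the adjusted criterion, and none was computed at this threshold, so nothing is read from that count. Smoc2, a SPARC-related calcium-binding protein, fell by 1.72 ± 0.26 at the high dose (3.28-fold, limma adjusted p = 0.000126), from a control mean of 1.65 ± 0.56 (SD, n = 5) to -0.10 ± 0.81 (SD, n = 6), with all high dose arrays at or below 1.03 and all controls at or above 1.08. Thbs3, a pentameric thrombospondin, fell by 1.00 ± 0.18 (limma adjusted p = 0.000685), and its second probe differed by -0.97 (limma adjusted p = 0.0154). Fstl1, a secreted follistatin-like glycoprotein of the SPARC family, fell by 0.65 ± 0.12 (limma adjusted p = 0.00133). Thbs3 and Fstl1 had no overlap between control and high dose arrays. Among the olfactomedin relatives of Olfml3, Olfml2b and Myoc alone were detected at the high dose, with differences of 0.01 ± 0.23 and -0.11 ± 0.11. Comp (-0.35 ± 0.09, limma adjusted p = 0.0195) was below the fold criterion.

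Of 16 receptor genes of the members, all on the array, 10, 9 and 9 were detected at the low, medium and high dose, and 1, 1 and 2 were called, Cd44 higher at each dose and Itgb3 lower at the high dose. Among all genes 2.17%, 4.24% and 5.45% were called higher and 3.01%, 4.65% and 6.40% lower, and nothing about the receptors is read from counts this small. Cd44, the receptor of hyaluronan and osteopontin, rose by 0.97 ± 0.10 at the high dose (1.96-fold, limma adjusted p = 2.01e-06), from -0.81 ± 0.19 (SD, n = 5) in controls to 0.21 ± 0.20 (SD, n = 6), with no overlap. It was also higher at the low dose, by 0.73 ± 0.10 (limma adjusted p = 0.000193), and at the medium dose, by 0.88 ± 0.10 (limma adjusted p = 1.67e-05). Its other detected probes read 0.51 (limma adjusted p = 0.0373) and 0.58 (limma adjusted p = 0.00962) at the high dose, and with the median over the probes of a gene neither Cd44 nor Itgb3 was called, whereas Lrp1 was. Itgb3, the beta subunit of the integrin that binds fibronectin, periostin and osteopontin, fell by 0.74 ± 0.16 at the high dose (1.67-fold, limma adjusted p = 0.00439), from -0.55 ± 0.35 (SD, n = 5) to -1.29 ± 0.26 (SD, n = 6), with overlapping arrays, and its other probe was not detected. The low-density lipoprotein receptor-related gene Lrp1, which clears thrombospondins, differed by -0.93 ± 0.29 (limma adjusted p = 0.0518), and Sdc4, a co-receptor for fibronectin, by -0.53 ± 0.14 (limma adjusted p = 0.0188), below the fold criterion. For Itgb1, the common beta subunit of fibronectin receptors, the difference was 0.09 ± 0.18 and for Itga5, its partner, 0.21 ± 0.49. The median over the detected receptors was 0.05, -0.04 and -0.30 at the 3 doses.

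**Figure D5:**
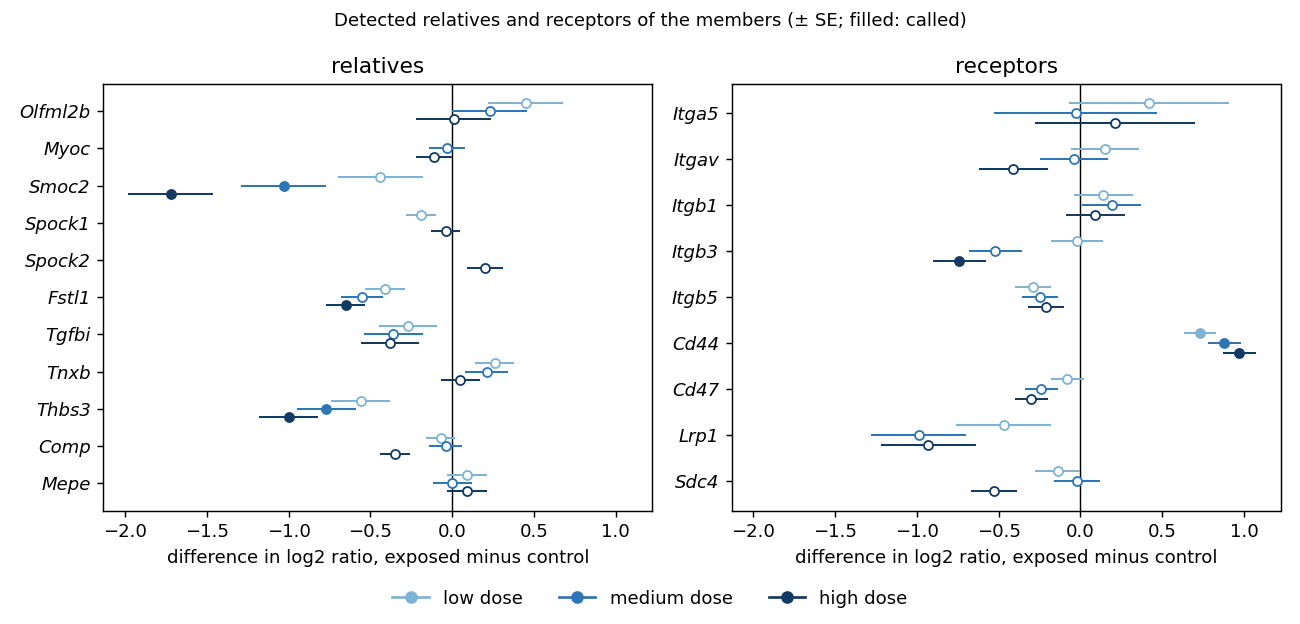
Difference in log2 ratio from control (horizontal axis, ± SE) at each of the 3 doses for the relatives (left) and receptors (right) detected at the high dose (vertical axis). Filled points were called. Smoc2 reaches -1.72 at the high dose, and the 3 Cd44 points, at 0.73, 0.88 and 0.97, are the called ones to the right of 0.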

How the data were processed

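RNA of 22 samples of FE1 cells was hybridised to 22 two-colour Agilent arrays of 62976 spots. The deposited scanner files hold the median spot intensity in both channels, extracted by the authors, and a log10 ratio made by the scanner software. Per the file headers this was Feature Extraction 10.7.3.1 with a G2505C scanner at 3 µm and a grid annotated on mm9. Version, scanner and resolution in the published methods differ from these. The deposited value table holds processed log2 ratios whose normalization is not given in the sources used here. Set against the loess ratios over 55681 probes, its columns had r of 0.84 to 0.99, slopes of 0.57 to 0.98 and medians of 0.004 to 0.027, so its direction is the same. Sample RNA carried Cy5 on every array, without a dye swap.

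From the intensities, log2(Cy5/Cy3) of the median signal was taken without background subtraction, as in the methods of the study. Spots marked as outliers were left out and each array was normalized by loess (limma 3.58.1, R 4.3.3). Symbols came from RefSeq (GRCm38.p6) through the accession of 26413 of 55681 probes. limma (lmFit, eBayes) was fitted to all 22 arrays with group and slide, in place of the ANOVA of the study, and Benjamini-Hochberg adjustment ran over all probes. A probe was detected where Cy5 exceeded the 5% trimmed mean plus 3 trimmed SD of 308 negative control spots. A gene was represented by its brightest probe. Intervals are 95% intervals. The number of arrays limits the precision.

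The members, the lists and the tests were chosen with earlier results of these data known. Named in the text were the members, up to 3 called increases and 3 called decreases at the high dose from each of 2 lists, and the 5 genes nearest to Olfml3, of which 1 is not reported here. Lrp1, Sdc4, Comp, Olfml2b, Myoc, Itgb1 and Itga5 were added after their values were seen. The replicate number is the sample number of the labels, which do not say that arrays are paired by it. Arrays with the same number deviated together from their group means. All 31 pairs had r above 0.1 (0.18 to 0.85, median 0.52, over 12255 genes), and 27 of these pairs shared a slide. Arrays of different groups and numbers on 1 slide had a median r of 0.3, so number and slide cannot be fully told apart. Alternatives covered normalization, background, marked spots, model terms, thresholds, source of the ratio, probe choice and arrays or slides left out. The fit was also run on simulated data, with noise drawn independently for each array apart from a slide effect. That run cannot show how arrays that share an experiment affect the p-values.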

Additional observations from a re-analysis of the deposited data

Results flagged for a closer look

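In 44 groups of 4 to 6 arrays (11 probes, 4 groups each), 2 had an array far from the others by the ratio of its gap to the group's range. Chance alone gives about 1 in 20. Both concerned the brightest Sparc probe. In the low dose group replicate 4 stood at 4.56, with a gap of 0.626 of the range (n = 6). In the control group replicate 5 stood at 1.20, with a gap of 0.712 of the range (n = 5).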

How the results depend on the processing

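Of the 12 counts of called genes under 41 alternatives, 437 of 492 values lay within 1.5 times the reported count, and 0 of the members' called differences changed sign. The members' differences from control moved by less than the spread between replicates in 977 of 984 cases. Part of both tallies was fixed in advance. A changed threshold, detection filter or variance setting cannot move a fitted difference, and counts of 0 in the comparisons of neighbouring doses had few ways to move. The tallies are therefore no measure of stability. With median centring, 1 member was called at the low dose (2 reported), 1 at the medium dose (3), 0 high against low dose (1), 0 relatives at the medium (2) and 1 at the high dose (3), and 0 receptors at the low and medium dose (1 each). With the 2-fold threshold, members called fell to 1 at the high dose and 0 high against low dose, relatives to 1 at the medium dose and receptors to 0 at all 3 doses. The scanner software's ratio gave 0 members high against low dose, 0 relatives at the medium and 5 at the high dose. The deposited log2 ratios gave 0 members high against low dose. Without the slide term 1 member was called at the low dose, 0 high against low dose, and 1 relative at the medium dose. With the groups compared alone, 1 member was called at the low dose and 1 relative at the medium dose. The median over probes gave 0 receptors at the low and 1 at the high dose. Arrays with the same replicate number mostly shared a slide, so a pairing by number was not established. With the replicate block in place of the slide term, 2 members (Olfml3 and Postn) were called high against low dose. At the low dose 1 relative (Thbs3) was called, and at the medium dose 2 receptors (Cd44 and Lrp1). Fn1 was then not called and Lrp1 was called at the high dose, and the block changed no other call of the members, or of the relatives and receptors against control. Leaving out slide 1 left 3 control and 3 medium dose arrays, so that no gene could meet the detection criterion between them, and gave 0 members and 0 receptors and 0 relatives at the medium dose and 1 member at the low dose. Without slide 2 there were 0 relatives and 2 receptors at the medium dose. Without slide 3 there were 0 members at the low and 1 at the medium dose, and high against low dose 0 without slide 3, 4 or 5. Without slide 4 there was 1 relative at the low dose. Without low dose replicate 1 and medium dose replicate 2 together, 2 members were called high against low dose and 2 receptors at the medium dose. Leaving out single arrays gave 2 to 2, 2 to 3 and 2 to 3 members at the low, medium and high dose, 0 to 2 high against low dose and 0 to 0 in the other dose comparisons, 0 to 1, 0 to 3 and 2 to 3 relatives, and 1 to 1, 1 to 2 and 2 to 3 receptors. The relatives at the medium dose numbered 0 without control replicate 1 and 1 without control replicate 3 or medium dose replicate 4. At the low dose there was 1 without control replicate 5. The receptors at the medium dose numbered 2 without control replicate 4, low dose replicate 1 or medium dose replicate 2. The causes were not tested.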
